A study of Mus musculus with 6 samples.

Results

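Leukocyte and gut-homing integrins are the adhesion receptors with which white blood cells leave the blood and settle in the gut wall. They were described here through 10 genes, Itga4, Itgb7, Itgb1, Itgae, Itgam, Itgax, Itgal, Itgad, Itgb2 and Itga6, chosen by name, out of 23656 genes in the files. Of these 10 genes, 7 encode alpha chains and 3 encode beta chains. The study measured messenger RNA of eosinophils from the small-intestinal lamina propria of wild-type BALB/c mice. The cells of 3 libraries were cultured for 4 hours with 10 ng/ml GM-CSF, a cytokine that prolongs eosinophil survival, and those of 3 libraries were cultured for 4 hours without it. Every group therefore consisted of intestinal eosinophils kept in culture, and freshly isolated cells were not analysed here. The cells were cultured in triplicate, and nothing in the sources used here says that the cultures came from separate animals. The p-values accordingly measure the spread between these libraries, which may be technical.

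An integrin is a pair of 1 alpha and 1 beta chain, and the pairing decides what the receptor binds. The alpha 4 chain pairs with beta 7 to form the receptor for MAdCAM-1, the address molecule of gut vessels, or with beta 1 to form VLA-4, the receptor for VCAM-1 and fibronectin. The beta 2 chain pairs with the alpha chains encoded by Itgal (LFA-1), Itgam (Mac-1), Itgax (complement receptor 4) and Itgad, which bind ICAMs, complement fragments and fibrinogen. Eosinophils are known to carry both the alpha 4 integrins and the beta 2 integrins, and both classes are known to take part in their entry into the intestine.

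The beta chains meet the cytoskeleton through their short cytoplasmic tails, which hold a membrane-near and a membrane-far copy of the NPxY-type motif; talin binds the first and kindlin the second. The 3 tails are shown because the data below separate the 3 beta chains. Each line gives the last 150 coding bases with the stop codon, 5′ to 3′, read from the GENCODE gene model on GRCm38, and capitals mark the codons of the NPxY or NPxF motifs. The stretch of Itgb7 lies at chr15:102216160-102216513 on the minus strand, that of Itgb1 at chr8:128726103-128732088 on the plus strand and that of Itgb2 at chr10:77564718-77565240 on the plus strand. Each runs over 2 exons.
Itgb7: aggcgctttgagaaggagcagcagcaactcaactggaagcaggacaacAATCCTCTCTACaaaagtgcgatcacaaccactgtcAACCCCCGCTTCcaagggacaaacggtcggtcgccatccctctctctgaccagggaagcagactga
Itgb1: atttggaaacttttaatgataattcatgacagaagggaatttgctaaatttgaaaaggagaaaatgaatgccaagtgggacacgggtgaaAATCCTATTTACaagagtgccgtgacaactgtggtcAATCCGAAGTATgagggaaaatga
Itgb2: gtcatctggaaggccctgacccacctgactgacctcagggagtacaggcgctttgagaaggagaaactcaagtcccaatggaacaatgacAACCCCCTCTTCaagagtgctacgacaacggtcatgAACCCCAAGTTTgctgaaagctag
Each tail held 2 such codon runs, and the 3 genes differed in the bases that spell them.

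The sequence before the start of transcription is given for the 3 genes with the largest changes. Each line gives 240 bases, from 250 to 11 bases before the RefSeq start (GRCm38.p6), in the direction of the gene. Capitals mark a match to the RUNX core motif, TGTGGT or its reverse complement. The Itgb7 window is chr15:102231946-102232185 on the minus strand, inside the outer bounds that RefSeq gives the gene. The Itgb1 window is chr8:128685404-128685643 and the Itga4 window chr2:79255176-79255415, both on the plus strand.
Itgb7: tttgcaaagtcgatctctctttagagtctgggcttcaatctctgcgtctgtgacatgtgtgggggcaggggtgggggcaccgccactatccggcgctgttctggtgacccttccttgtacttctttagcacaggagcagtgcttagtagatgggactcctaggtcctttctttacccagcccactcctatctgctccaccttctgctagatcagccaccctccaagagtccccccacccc
Itgb1: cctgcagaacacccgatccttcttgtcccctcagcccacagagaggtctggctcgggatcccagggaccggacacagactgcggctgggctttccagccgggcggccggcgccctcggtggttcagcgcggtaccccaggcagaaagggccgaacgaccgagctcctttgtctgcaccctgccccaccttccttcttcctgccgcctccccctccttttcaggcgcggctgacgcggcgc
Itga4: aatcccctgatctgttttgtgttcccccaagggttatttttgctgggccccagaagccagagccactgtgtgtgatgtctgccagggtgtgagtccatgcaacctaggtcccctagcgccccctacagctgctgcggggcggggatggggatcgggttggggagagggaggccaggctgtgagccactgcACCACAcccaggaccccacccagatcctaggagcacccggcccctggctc
The window of Itga4 held 1 RUNX match, 60 bases before the start, and 13.6% of the 32851 mouse windows of that length held at least 1 on either strand. The STAT motif TTCNNNGAA, the type of site used by the factor that GM-CSF receptors activate, was in none of the 5 member windows for which RefSeq sequence was at hand, against 6.77% of all windows. The PU.1 motif GAGGAA was in 1 of the 5, that of Itgam at 84 bases before the start, against 22.3% of all windows. The PU.1 and RUNX motifs do not overlap in these windows. A match is a description of letters, and its absence says only that these letters are not in these windows.

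The 6 libraries had between 0.820 and 1.32 gigabases mapped, as the ratio of coverage to FPKM gives it. Library 2 of the GM-CSF group was the deepest. FPKM counts fragments relative to transcript length and to library size, so levels of different genes can be set side by side. All 10 eosinophil marker genes passed the filter of a mean of at least 1 FPKM. Their summed level was 2174 to 2373 FPKM with GM-CSF and 2042 to 2232 FPKM in untreated libraries. Of the 10, 2 rose and 4 fell (60.0%, against 21.8% of all tested genes). Csf2rb, the beta chain of the GM-CSF receptor, carried much of the sum (1098 FPKM with GM-CSF and 600.4 FPKM untreated). Without Csf2rb the other 9 summed to 1079 to 1250 FPKM with GM-CSF and 1453 to 1647 FPKM untreated. Alox15, Il5ra, Cebpe and Epx fell, and the call of Epx was lost in 8 of 19 alternatives. Alox15 alone had a mean of 157 FPKM with GM-CSF and 460.6 FPKM untreated. Il1rl1 rose (log2 fold change 0.76, adjusted p = 0.00353, limma), and Siglec5, Ccr3, Prg2 and Emr1 did not pass. Markers of other cell types were also measured. Summed B and plasma cell markers were at 16.7 to 17.7 FPKM with GM-CSF and at 31.0 to 38.6 FPKM untreated, and summed T cell markers at 15.3 to 18.0 FPKM with GM-CSF and at 28.5 to 29.4 FPKM untreated. The part of these or any other cells in the integrin results was not tested. Of the 10140 genes tested with limma, 2209 changed at an adjusted p under 0.05 (21.8%), 771 upwards (7.6%) and 1438 downwards (14.2%). The median log2 fold change of all tested genes was -0.05. Rises made up 34.9% of the changed genes here and 52.6% after median-of-ratios scaling, 46.1% after rescaling to the same sum and 45.9% after quantile normalization.

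With GM-CSF the eosinophil cultures had much less messenger RNA for the gut-homing beta 7 chain, less for its alpha 4 partner, and more for the beta 1 chain that competes for the same partner. The genes of the abundant beta 2 integrins differed by less, and of these Itgal passed the test. Of the 10 genes, 8 passed the filter and 4 of these changed (50.0%, against 21.8% of all tested genes). Itgb1 rose, and Itgb7, Itga4 and Itgal fell. The 2 groups of libraries did not overlap for 7 of the 8, as for 39.2% of all tested genes. The median log2 fold change of the 8 was -0.10, near that of all tested genes.

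**Figure D1:**
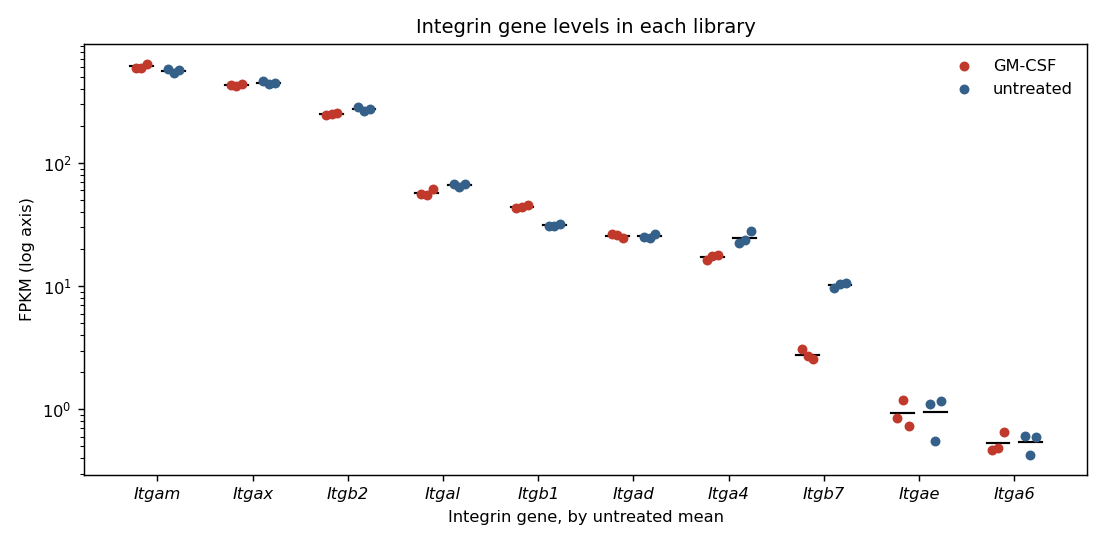
FPKM of the 10 integrin genes in each library on a log axis, with GM-CSF libraries in red to the left of untreated libraries in blue and a bar at the mean of 3. Itgb7 sits between 2.56 and 3.11 FPKM with GM-CSF and between 9.69 and 10.6 FPKM untreated, the widest gap of the 10 genes on this axis, while Itgad, Itgae and Itga6 overlap.

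The order of the 10 levels was the same in both groups. Itgam was the most abundant, with a mean of 612 FPKM with GM-CSF and 562.5 FPKM untreated, at rank 95 of 10140 tested genes by its mean over the 6 libraries. Itgax, Itgb2, Itgal, Itgb1, Itgad, Itga4, Itgb7, Itgae and Itga6 followed in that order. The library ranges of neighbours in the order did not overlap with GM-CSF. In the untreated libraries those of Itgad and Itga4 overlapped, as did those of Itgae and Itga6. Itgad stood 1.48 times above Itga4 with GM-CSF and 1.04 times above it untreated.

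Itgb7 encodes the beta 7 chain, which forms the MAdCAM-1 receptor with alpha 4 and the E-cadherin receptor with alpha E. The gene lies at chr15:102215994-102233405 (GRCm38.p6). Its level was 3.11, 2.69 and 2.56 FPKM in the 3 GM-CSF libraries, against 9.69, 10.5 and 10.6 FPKM in the 3 untreated libraries. All GM-CSF libraries were far below all untreated ones, and the gap was many times the spread within either group. The means were 2.79 ± 0.286 FPKM with GM-CSF and 10.2 ± 0.479 FPKM untreated (SD, n = 3 each), so that the untreated mean was 3.67 times as high. On the log2(FPKM + 1) scale Itgb7 fell by 1.57 (SE 0.08, 95% interval -1.76 to -1.38, adjusted p = 5.28e-05, limma). Only 4 of the 1438 genes that fell had a larger fall on that scale, so this gene stood near the extreme of the whole table. The mean read depth over the transcript was 2.10 to 3.57 with GM-CSF and 9.10 to 10.2 untreated, and the deepest GM-CSF library was still below every untreated one. The fall passed the test in all 19 alternative settings tried, with log2 fold changes of -1.84 to -1.50.

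Lymphocytes also use Itgb7 and Itga4, and in bulk libraries fewer cells of a type and less RNA per cell cannot be told apart. The summed T cell markers with GM-CSF were 0.577 of the untreated level, and 4 of 5 tested markers fell, as did 14.2% of all tested genes; 3 of 5 fell under each of the 3 other scalings. The summed B and plasma cell markers were at 0.516, with 5 of 5 tested markers lower, 4 of 5 under median-of-ratios scaling and 3 of 5 under quantile normalization. The 2 tested markers of innate lymphoid and NK cells fell as well, 1 of the 2 under each other scaling (the call of Gzma was lost in 12 of 18 alternatives), and their list summed to 0.582 of the untreated level. Trac was on the T cell list but was not found. None of the markers found from the B and T cell lists was at 0 in all libraries. Itgb7 itself was at 0.272 and Itga4 at 0.703 of the untreated mean.

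Itga4 encodes the alpha 4 chain (chr2:79255426-79333114), shared by the MAdCAM-1 receptor and VLA-4. It was measured at 16.4, 17.6 and 17.9 FPKM with GM-CSF, against 22.3, 23.7 and 27.9 FPKM untreated. The groups did not overlap, and the untreated libraries varied more among themselves than the GM-CSF libraries. Itga4 averaged 17.3 ± 0.787 FPKM with GM-CSF and 24.6 ± 2.90 FPKM untreated (SD, n = 3 each), and fell by 0.48 on the log2 scale (SE 0.09, adjusted p = 0.00967, limma). Of 13978 annotated exon bases of Itga4, 1124 overlap exons of Cerkl, a gene on the opposite strand. The kit marks strand, per the labels, but the strand setting of the counting was not given in the sources used here. Cerkl, looked at because of this overlap, was at 1.25, 1.90 and 1.61 FPKM with GM-CSF and at 2.36, 3.20 and 2.40 FPKM untreated. Its level was far below that of Itga4, and it fell by a similar amount (log2 fold change -0.50, adjusted p = 0.0452, limma). The part of the overlap in either value was not tested.

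Itgb1 encodes the beta 1 chain (chr8:128685654-128733579), the most widely used beta chain and the alternative partner of alpha 4. Its level was 43.5, 43.7 and 45.6 FPKM with GM-CSF, against 30.8, 30.9 and 31.9 FPKM untreated. The libraries of each group lay close together and every GM-CSF library was above every untreated one. Itgb1 averaged 44.3 ± 1.18 FPKM with GM-CSF and 31.2 ± 0.606 FPKM untreated (SD, n = 3 each), a ratio of 1.42. It rose by 0.49 on the log2 scale (SE 0.04, adjusted p = 0.000413, limma) and was the only 1 of the 10 genes that rose in the test as reported.

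**Figure D2:**
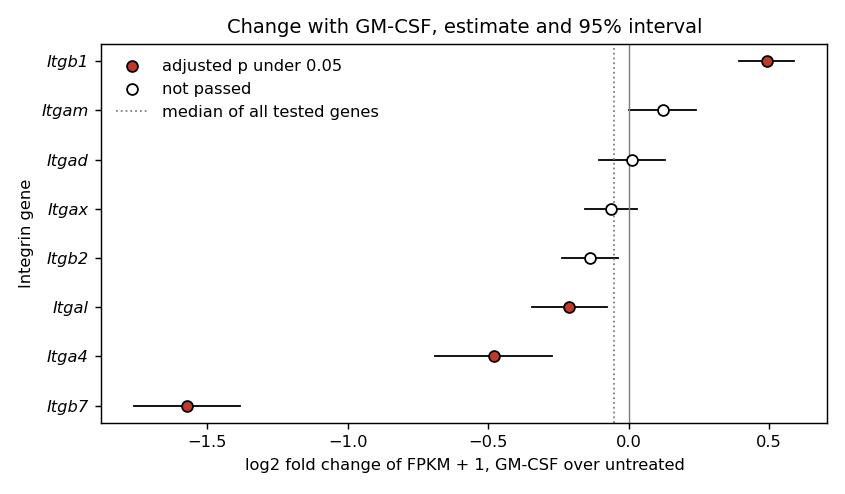
Log2 fold change of FPKM + 1, GM-CSF over untreated, for the 8 tested integrin genes, with 95% intervals. Filled points passed an adjusted p of 0.05 in limma; Itgb7 at -1.57 and Itgb1 at 0.49 lie at opposite ends, and the dotted line marks the median of all tested genes at -0.05.

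Itgae and Itga6 were barely detected. Itgae encodes alpha E, which with beta 7 holds intraepithelial lymphocytes and some dendritic cells to E-cadherin (chr11:73090505-73147449). It was at 0.857, 1.19 and 0.740 FPKM with GM-CSF and at 1.11, 0.551 and 1.18 FPKM untreated. Itga6 encodes alpha 6, a laminin-binding chain that pairs with beta 1 or beta 4 (chr2:71786886-71858427), and was at 0.465, 0.482 and 0.658 FPKM with GM-CSF and at 0.603, 0.425 and 0.599 FPKM untreated. The groups overlapped for both genes, and their mean read depth did not exceed 1.57. Both were under the filter as reported, and entered the test with a lower filter or after rescaling to the same sum. With a filter at 0.1 FPKM the log2 fold change was -0.0047 for Itgae (adjusted p = 0.99) and -0.0068 for Itga6 (adjusted p = 0.972, both limma), and after rescaling the values were 0.03 and 0.01. Epithelium also uses Itga6. The summed epithelial markers, of which Krt18 was the most abundant, were at 59.7 to 73.5 FPKM with GM-CSF and 92.0 to 98.7 FPKM untreated. Of 9 tested, 5 fell (55.6%, against 21.8% of all tested genes), and 4 or 5 under the other scalings. Epcam averaged 14.6 FPKM with GM-CSF and 11.8 FPKM untreated and did not pass (adjusted p = 0.199, limma). Muc2 averaged 0.0067 FPKM with GM-CSF and 0.024 FPKM untreated. The source of this RNA was not tested.

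The beta 2 chain and its partners made up most of the integrin RNA. Itgb2 (chr10:77530329-77565708) was at 247, 249 and 257 FPKM with GM-CSF, against 286, 265 and 277 FPKM untreated. All GM-CSF libraries were below all untreated ones, by less than in the genes above. The means were 251 ± 5.06 FPKM with GM-CSF and 276 ± 10.4 FPKM untreated (SD, n = 3 each). The log2 fold change of -0.14 (SE 0.04, 95% interval -0.24 to -0.04) missed the threshold with an adjusted p of 0.0606 in limma, and the gene passed in none of the 19 alternatives, where the lowest adjusted p was 0.0565.

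Itgal encodes the alpha chain of LFA-1, the receptor for ICAM-1 and ICAM-2 (chr7:127296139-127335137). It was measured at 55.9, 54.7 and 61.5 FPKM with GM-CSF, against 67.4, 64.3 and 67.6 FPKM untreated. The groups did not overlap, but the third GM-CSF library came close to the lowest untreated one. Itgal averaged 57.4 ± 3.67 FPKM with GM-CSF and 66.4 ± 1.89 FPKM untreated (SD, n = 3 each) and fell by 0.21 on the log2 scale (SE 0.06, adjusted p = 0.0378, limma). This call was lost in 11 of the 19 alternatives, among them median-of-ratios scaling (adjusted p = 0.129) and quantile normalization (adjusted p = 0.0863). Leaving out any 1 library other than the third GM-CSF library also ended it, with adjusted p-values of 0.0699 to 0.114.

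Itgam encodes the alpha chain of Mac-1, known as CD11b (chr7:128062640-128118491). Its level was 595, 597 and 643 FPKM with GM-CSF, against 583, 538 and 566 FPKM untreated. Every GM-CSF library was above every untreated one, by a margin smaller than the spread within a group. The means were 612 ± 26.9 FPKM with GM-CSF and 562.5 ± 22.4 FPKM untreated (SD, n = 3 each), and the log2 fold change was 0.12 (SE 0.05, adjusted p = 0.143, limma). It passed the threshold under median-of-ratios scaling (log2 fold change 0.19, adjusted p = 0.0385) and in no other alternative. In GENCODE, 3450 of 5024 annotated exon bases of Itgam are shared with Gm49368, a gene model on the same strand. The sources used here do not say which annotation the counting used, so it is uncertain how reads of these bases were assigned, and with it the level, rank and share of Itgam. Neutrophils and macrophages also use Itgam: the summed neutrophil markers, mostly Retnlg, were at 1141 to 1168 FPKM with GM-CSF and 1365 to 1482 FPKM untreated, with the granule genes Elane and Camp at 0 in all libraries. Cxcr2, a chemokine receptor of the same list, rose to 109 FPKM with GM-CSF, against 23.8 FPKM untreated (log2 fold change 2.15, adjusted p = 8.15e-06, limma). Without Retnlg the list summed to 151 to 160.3 FPKM with GM-CSF, most of it Cxcr2, and 83.4 to 94.7 FPKM untreated. Retnlg and S100a8 fell (log2 fold change -0.43 and -0.77, adjusted p = 0.00121 and 0.00217, limma). S100a9 had a mean of 36.9 FPKM with GM-CSF and 48.2 FPKM untreated and did not pass (adjusted p = 0.104, limma). Of the 4 tested, 1 rose and 2 fell (75.0%, against 21.8% of all tested genes). Ly6g was on the list but was not found. The summed macrophage and dendritic cell markers were at 130 to 139 FPKM with GM-CSF and 136 to 154.5 FPKM untreated, and Mertk, Flt3, Zbtb46 and the C1q genes did not exceed 0.640 FPKM in any library. Most of that sum was Cd68. Without Cd68 the list was at 32.6 to 38.5 FPKM with GM-CSF and 48.2 to 63.0 FPKM untreated. Csf1r, Apoe and Lyz2 fell, which is 3 of 5 tested (60.0%, against 21.8% of all tested genes). Under each other scaling 2 of 5 fell, and the call of Lyz2 was lost in 13 of 19 alternatives. Xcr1 had a mean of 1.30 FPKM with GM-CSF and 1.01 FPKM untreated and did not pass (adjusted p = 0.241, limma).

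Itgam is listed with a pair of transcripts that differ by 3 bases, CAG, at an exon start. Both are shown, with the 3 bases in capitals (chr7:128101533-128101660, plus strand, GENCODE exons on GRCm38).
Longer: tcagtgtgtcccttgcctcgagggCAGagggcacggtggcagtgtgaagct
Shorter: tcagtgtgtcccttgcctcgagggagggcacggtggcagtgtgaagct
The longer form took 20.8, 29.0 and 25.3% of Itgam FPKM in the GM-CSF libraries, against 27.1, 18.5 and 24.4% in the untreated libraries. The groups overlapped. Short reads can tell the forms apart only where they cross these bases, so only the gene sums are used here, as for the 4 near-identical transcripts of Itgal.

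Itgax encodes the alpha chain of complement receptor 4, known as CD11c, and marks intestinal eosinophils as well as dendritic cells. It was at 434, 422.5 and 435 FPKM with GM-CSF, against 465, 441 and 443 FPKM untreated (chr7:128129526-128150657). The groups did not overlap, but the difference was small beside the level. The log2 fold change was -0.06 (SE 0.04, adjusted p = 0.311, limma), and it was positive at 0.01 under median-of-ratios scaling.

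Itgad encodes alpha D, a further beta 2 partner (chr7:128173933-128205504). Its level was 26.4, 26.1 and 24.6 FPKM with GM-CSF and 25.2, 24.8 and 26.5 FPKM untreated. The groups overlapped over most of their range. The log2 fold change was 0.01 with a 95% interval of -0.11 to 0.13 (adjusted p = 0.908, limma), and its sign changed in 2 alternatives. Itgax and Itgad are neighbours that share sequence: of 4007 stretches of 40 bases in Itgax, 445 recur in Itgad, and the longest identical run is 188 bases. Reads from those stretches could be split between the pair, so the level of Itgad beside the far more abundant Itgax is uncertain. Of 4510 annotated exon bases of Itgad, 388 also overlap 4931431B13Rik on the opposite strand, and 330 overlap Gm17831, a processed pseudogene on the same strand. Itgb7, Itgb1, Itgae and Itgal shared no stretch of 40 bases with another annotated gene. The alpha chains of the 4 beta 2 integrins all lie on chromosome 7. No protein-coding gene lies between Itgam and Itgax (11034 bases) or between Itgax and Itgad (23275 bases), while Itgal is 727502 bases from Itgam with 35 protein-coding genes between them. Within this cluster Itgal fell, and Itgam, Itgax and Itgad did not pass the test.

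Because alpha and beta chains work as pairs, the balance between chains was also measured within each library. Beta 7 made up 1.06, 0.912 and 0.839% of the summed FPKM of the 3 beta chains with GM-CSF, against 2.97, 3.41 and 3.31% untreated. Its share was 0.936 ± 0.112% with GM-CSF and 3.23 ± 0.232% untreated (SD, n = 3 each), a difference of -2.29 percentage points. Beta 1 made up 14.9 ± 0.0970% with GM-CSF and 9.82 ± 0.346% untreated, and beta 2 84.2 ± 0.0868% with GM-CSF and 86.95 ± 0.578% untreated. No library of one group reached into the other for any of the 3 shares. The exact two-sided permutation p was 0.1 for the beta 7 share and for the beta 2 share, the smallest that 3 against 3 libraries can give.

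For the alpha 4 chain, the candidate beta partners shifted in opposite directions. Itgb7 stood at 0.189, 0.153 and 0.143 of the Itga4 level with GM-CSF, against 0.434, 0.442 and 0.379 untreated. The log2 ratio was -2.64 ± 0.212 with GM-CSF and -1.26 ± 0.122 untreated (SD, n = 3 each), a difference of -1.38 with an exact two-sided permutation p of 0.1, again the smallest possible. Itgb1 stood at 2.65, 2.48 and 2.55 times the Itga4 level with GM-CSF, against 1.38, 1.31 and 1.14 times untreated. The ratio of Itgb1 to Itgb7 was 16.0 ± 1.93 with GM-CSF and 3.05 ± 0.116 untreated. These are ratios of messenger RNA, and surface protein was not measured in these files.

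Among the 4 alpha partners of beta 2, Itgam took 53.5, 54.3 and 55.2% of the summed FPKM with GM-CSF, against 51.1, 50.4 and 51.3% untreated. The difference was 3.41 percentage points (exact two-sided permutation p = 0.1, the smallest possible). Itgax made up 38.3 ± 0.834% with GM-CSF and 40.7 ± 0.568% untreated, and Itgal 5.09 ± 0.169% with GM-CSF and 6.02 ± 0.108% untreated. The summed level of the 4 alpha chains overlapped between the groups, at 1126 ± 34.1 FPKM with GM-CSF and 1104 ± 35.9 FPKM untreated (SD, n = 3 each). Per unit of Itgb2 the sum was 4.49 ± 0.0599 with GM-CSF and 4.00 ± 0.0255 untreated, without overlap.

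**Figure D3:**
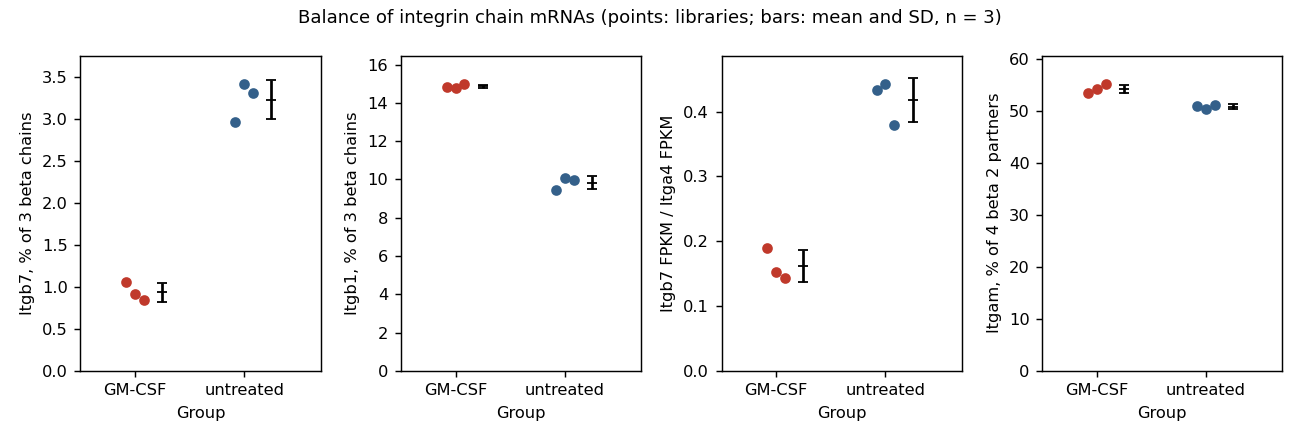
Shares and ratios of integrin chain FPKM in each library (points) with mean and SD (bars, n = 3), GM-CSF in red left of untreated in blue, all axes from 0. The Itgb7 share is 0.936% with GM-CSF and 3.23% untreated, and the Itgb1 share 14.9% with GM-CSF and 9.82% untreated; the Itgam share moves little beside its level.

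The files list 26 integrin subunit genes. Of the 16 outside the 10 genes, 12 had a mean under 1 FPKM and 4 were tested, with a median log2 fold change of -0.19 and 1 call (25%, near the 21.8% of all tested genes). Itga2b, the platelet alpha IIb chain, was at 2.51, 2.65 and 2.36 FPKM with GM-CSF and at 3.52, 3.79 and 3.59 FPKM untreated, and fell (log2 fold change -0.40, adjusted p = 0.00967, limma). The summed platelet markers, which include Itga2b and are mostly Ppbp, were at 41.9 to 46.5 FPKM with GM-CSF and 72.5 to 78.6 FPKM untreated, with Gp9 at 0 in all. Itgav, the alpha V chain of RGD-binding integrins and the most abundant of the 16, had a mean of 6.10 FPKM with GM-CSF and 6.92 FPKM untreated (adjusted p = 0.19, limma). Itgb3, the beta 3 partner of both chains, had a mean of 2.57 FPKM with GM-CSF and 2.75 FPKM untreated (adjusted p = 0.73, limma).

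Integrins are switched on from inside the cell by talin, kindlin and the small GTPase Rap1. Of 30 activation and adaptor genes, 25 were tested, 2 rose and 9 fell, which is 44.0% changed against 21.8% of all tested genes. The median log2 fold change was -0.11, and under median-of-ratios scaling it was -0.04 with 3 higher and 7 lower. Rasgrp2, the exchange factor that loads Rap1 (CalDAG-GEFI), fell most, with 14.0, 14.5 and 15.2 FPKM with GM-CSF and 19.8, 24.1 and 21.8 FPKM untreated (log2 fold change -0.55, adjusted p = 0.00339, limma). Fyb, the ADAP adaptor, was at 173 ± 3.32 FPKM with GM-CSF and 246.5 ± 13.4 FPKM untreated (log2 fold change -0.51, adjusted p = 0.000774, limma). Fermt3, the kindlin of blood cells, was at 30.6 ± 1.72 FPKM with GM-CSF and 43.5 ± 1.12 FPKM untreated (SD, n = 3 each; log2 fold change -0.49, adjusted p = 0.00122, limma). Rap1b, Flna, Pxn, Actn1, Sharpin and Apbb1ip also fell. Flna and Sharpin are known to restrain integrins, so these genes do not all act in 1 direction. Syk, a kinase that acts downstream of integrins (log2 fold change 0.37), and Rassf5, a Rap1 effector (log2 fold change 0.30), rose. Tln1, which encodes talin, had a mean of 142.5 FPKM with GM-CSF and 149 FPKM untreated and did not pass (adjusted p = 0.479, limma). Of these calls, that of Sharpin was lost in 10 of 19 alternatives, that of Rassf5 in 5, that of Apbb1ip in 4 and those of Actn1, Pxn and Syk in 1 each.

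Of 23 ligand and counter-receptor genes 15 averaged under 1 FPKM. The other 8 were tested, 1 rose and 5 fell (75.0% of those tested, against 21.8% of all tested genes), with a median log2 fold change of -0.32. With median-of-ratios scaling 1 rose and 3 fell, with a median of -0.27. Madcam1, the vascular ligand of the beta 7 integrin, was listed at 0 in all libraries, and Vcam1 did not exceed 0.358 FPKM. Spp1, which encodes the alpha 4 ligand osteopontin, was at 2.72, 2.63 and 3.75 FPKM with GM-CSF and at 6.26, 4.92 and 5.13 FPKM untreated (log2 fold change -0.68, adjusted p = 0.0136, limma), a call lost in 1 of 18 alternatives. Thbs1, thrombospondin, was at 6.74 ± 0.472 FPKM with GM-CSF and 11.4 ± 1.60 FPKM untreated (log2 fold change -0.68, adjusted p = 0.0055, limma). Icam2, a ligand of LFA-1, was at 9.53 ± 0.241 FPKM with GM-CSF and 15.0 ± 1.15 FPKM untreated (SD, n = 3 each; log2 fold change -0.60, adjusted p = 0.00134, limma). Icam1 and F11r also fell, and these calls were lost in 13 of 19 and 14 of 18 alternatives. Plaur, the urokinase receptor that associates with beta 1 and beta 2 integrins, rose (log2 fold change 0.52, adjusted p = 0.00791, limma).

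Of 19 genes for integrin trafficking and glycosylation 16 were tested, 2 rose and 2 fell (25%, near the 21.8% of all tested genes). The median log2 fold change was -0.05, and 0.02 under median-of-ratios scaling. Numb, an endocytic adaptor of integrins, was at 10.1, 9.80 and 14.4 FPKM with GM-CSF and at 4.89, 1.91 and 3.99 FPKM untreated, with wide spread in both groups (log2 fold change 1.48, SE 0.28, adjusted p = 0.0115, limma). Cd47, the integrin-associated protein, was at 50.2 ± 0.994 FPKM with GM-CSF and 38.7 ± 2.79 FPKM untreated (log2 fold change 0.37, adjusted p = 0.0057, limma). Rab11fip1, a recycling adaptor, was at 14.2 ± 0.275 FPKM with GM-CSF and 19.4 ± 0.924 FPKM untreated (SD, n = 3 each; log2 fold change -0.42, adjusted p = 0.00222, limma). The fall of Cd9, a tetraspanin, was lost in 13 of 19 alternatives.

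**Figure D4:**
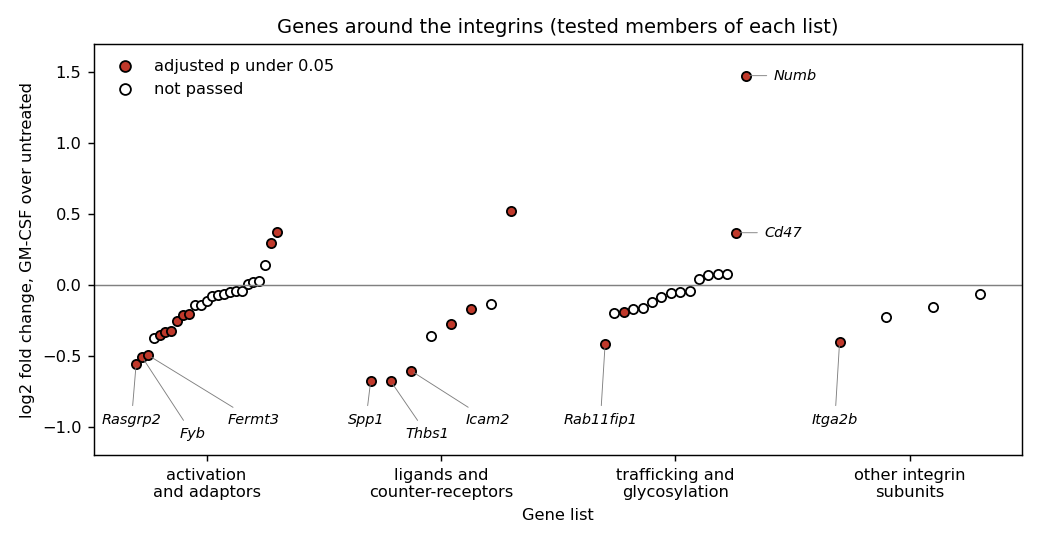
Log2 fold change, GM-CSF over untreated, of every tested gene in 4 lists around the integrins; filled points passed an adjusted p of 0.05 in limma. Rasgrp2, Fyb and Fermt3 lie lowest among the activation genes, and Numb at 1.48 stands above all others.

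Among the genes whose pattern over the 6 libraries was most like that of Itgb7, by Pearson r of log2(FPKM + 1), were Daglb (0.998), Degs1 and Aldh2 (0.997 each) and Neurl3 (0.996). The r describes mainly the step between the 2 groups, since 1248 of 10139 genes compared had r over 0.9. Daglb, a diacylglycerol lipase, had a mean of 4.42 FPKM with GM-CSF and 10.1 FPKM untreated. Aldh2, an aldehyde dehydrogenase, had a mean of 106.5 FPKM with GM-CSF and 169 FPKM untreated. Degs1, a desaturase of sphingolipid synthesis, moved much less, with 134 FPKM with GM-CSF and 152 FPKM untreated. Among the integrin genes, r with Itgb7 was 0.922 for Itga4 and -0.993 for Itgb1.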

How the data were processed

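Trizol RNA went into stranded messenger RNA libraries, per the labels' protocols. Per the submitters' processing notes the tools were bcl2fastq 1.8.4, TopHat, TopHat2 and Cufflinks on mm10. The strand setting, the annotation version and how the cells were isolated are not given in the sources used here. The deposited values are FPKM per transcript as the authors computed them, with a coverage signal per transcript that, per the file headers, gives mean read depth; it was used only for depth. No read counts were used.

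FPKM of 30374 transcripts were summed per gene symbol and locus, 23656 genes in all. Genes averaging 1 FPKM or more across all 6 libraries were fitted on log2(FPKM + 1) with limma 3.58.1 (R 4.3.3, lmFit and eBayes with trend, treatment as the factor, two-sided), with Benjamini-Hochberg adjustment over the 10140 genes tested and a threshold of 0.05. The pseudocount understates changes of low genes. Shares and ratios of FPKM were tested with exact permutation tests (scipy 1.17.1). Intervals are 95% intervals of the fit.

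The 10 genes, the gene lists and the marker lists were chosen with earlier results of these data known. Named were all 10 genes, other subunits that passed, the most abundant that did not, of each list the 3 largest changes that passed, and the 5 genes most correlated with Itgb7, of which 1 is not reported here; Cerkl, Plaur, Tln1, Syk, Rassf5, Itgb3, the marker genes and the genes given by name as called were added after their values were seen. Sequences come from GENCODE M21 and RefSeq (GRCm38.p6), and promoter sequence was at hand for 5 of the 10 genes. In the 19 alternatives the pseudocount, filter, scaling, model, transcript choice and libraries were varied. The sum per symbol alone was an alternative chosen after seeing the data.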

Additional observations from a re-analysis of the deposited data

How the results depend on the processing

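Over the 19 alternatives, 1506 to 2289 genes changed, against 2209 as reported, and 3 or 4 of the integrin genes did. Itgb7, Itga4 and Itgb1 passed in all 19 and kept their direction. Itgal was lost in 11, and Itgam passed in 1, median-of-ratios scaling, where 2 integrin genes rose and 2 fell. Leaving out 1 library at a time gave 1506 to 1786 changed genes, a beta 7 share difference of -2.42 to -2.20 percentage points, a beta 2 share difference of -2.96 to -2.42, a log2 ratio difference of Itgb7 to Itga4 of -1.50 to -1.29, and an Itgam share difference of 2.98 to 3.81.

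Replicate numbers occur in both groups, but same-numbered libraries did not deviate together (correlations of -0.031, 0.05 and -0.021 over 10140 genes), and only those numbered 2 correlated best with each other. With the replicate number as a block, 1991 genes and the same number of integrin genes, 4, changed. The exact sign-flip p of each share and ratio was then 0.25, the smallest that 3 pairs allow.

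Depth limits the lowest genes: Itgae and Itga6 had a mean read depth of at most 1.57, and no change was detected in them. With 3 libraries a group the permutation tests could not go below 0.1. Counts of reads were not used, so no counting interval is given.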
